A study of Mus musculus with 8 samples.

Results

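The adult cardiac thick and thin filament genes were followed in hearts overexpressing FASTKD1, a FASTK family protein found in mitochondria: Myh6, Myl2, Myl3, Mybpc3, Ttn, Actc1, Tpm1, Tnnt2, Tnni3 and Tnnc1. The 10 genes were chosen by name, with earlier results of these data known. All 10 were present among the 13227 genes in the files and among the 13226 genes tested. The 8 libraries came from hearts of FVB/N mice, all labelled male, adults of 3 months, FVB/N being an inbred strain. In 4 hearts (A, B, C and E) the mice carried a FASTKD1 transgene, called cardiac-specific by the series title, and in the other 4 (A, B, D and E) they were non-transgenic. The sources used here do not give the promoter that drives the transgene or the number of founder lines. Expression was measured by RNA sequencing of the heart as counts per gene, given below as CPM, the gene's count scaled to a common library size after TMM normalization.

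The sarcomere is the repeating unit of heart muscle, in which myosin motors of the thick filament pull on actin of the thin filament. Calcium bound by troponin shifts tropomyosin along the thin filament and opens actin to the motors, while titin spans from the Z-disc to the M-band and acts as a spring. In the ventricle of an adult mouse the motor is mainly the fast alpha myosin heavy chain, and adult forms of the light chains and troponin I have replaced the fetal ones.

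Total counts ran from 44584359 to 55769859 in transgenic hearts and from 45802079 to 50830215 in non-transgenic hearts. Fastkd1 stood at 8845 to 11516 CPM in transgenic hearts and at 26.3 to 33.8 CPM in the non-transgenic A, B and E hearts. The library labelled non-transgenic D had 192 CPM of Fastkd1, and 0 counts over the Y-linked genes although labelled male. The other hearts had 10372 to 15914 counts over the Y-linked genes, so the male label of heart D is in doubt. Atrial marker genes summed to 5989 CPM in transgenic heart A and to 1789.5 CPM in non-transgenic heart D, against 935 to 1295 CPM in the other 6 hearts. Without both of these libraries the median log2 fold change of the members was -0.36, against -0.34 with all 8, and the values that leaving them out moved most are given below. Nothing in the labels says that hearts were pooled, and each library was taken as 1 animal.

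The starts of 4 of the genes are shown because they mark the range of the results below: Myh6 was the most abundant, Tnnt2 had the smallest p, Actc1 had the highest level per length of exon, and Ttn had the fold change nearest to 0. Each line is the 250 bases before the RefSeq start on GRCm38.p6, 5′ to 3′ on the gene's own strand, for Myh6 chr14:54966608-54966857 (minus strand), for Tnnt2 chr1:135836084-135836333 (plus), for Actc1 chr2:114052876-114053125 (minus) and for Ttn chr2:76982548-76982797 (minus). Capitals mark a match to CATTCC or its reverse complement, the MCAT element known to bind TEAD factors (Myh6 and Tnnt2), to the CArG box known to bind SRF (Actc1) and to the MEF2 box (Ttn).
Myh6: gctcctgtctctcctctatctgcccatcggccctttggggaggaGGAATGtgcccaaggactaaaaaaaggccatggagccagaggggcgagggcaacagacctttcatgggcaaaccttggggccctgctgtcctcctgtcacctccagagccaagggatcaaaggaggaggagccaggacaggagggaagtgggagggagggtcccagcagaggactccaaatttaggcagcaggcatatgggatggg
Tnnt2: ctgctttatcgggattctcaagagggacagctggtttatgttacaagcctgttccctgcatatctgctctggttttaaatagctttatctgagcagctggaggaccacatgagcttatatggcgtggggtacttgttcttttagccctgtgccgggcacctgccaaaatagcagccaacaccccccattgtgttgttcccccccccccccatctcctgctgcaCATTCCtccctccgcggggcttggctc
Actc1: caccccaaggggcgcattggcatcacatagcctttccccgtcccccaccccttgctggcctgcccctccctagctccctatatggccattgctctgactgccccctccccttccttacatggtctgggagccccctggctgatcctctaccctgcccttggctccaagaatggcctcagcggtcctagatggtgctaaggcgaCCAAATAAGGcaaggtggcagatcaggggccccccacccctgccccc
Ttn: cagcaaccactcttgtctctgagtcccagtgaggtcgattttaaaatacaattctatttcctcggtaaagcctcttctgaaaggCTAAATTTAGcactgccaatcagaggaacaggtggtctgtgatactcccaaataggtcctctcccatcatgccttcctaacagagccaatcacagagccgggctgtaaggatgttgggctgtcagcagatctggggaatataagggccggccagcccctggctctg

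No motif was shared by all members. On either strand, CATTCC was found in the windows of 5 of the 10 members (Myh6, Myl3, Tnnc1, Tnnt2 and Tpm1), and in 12.6% of all 32851 promoter windows of that length. The CArG box was found in Actc1 and Myl3, against 1.47% of all windows, and the MEF2 box in Mybpc3 and Ttn, against 2.92%. The letters TATAAA were found only in a window of Myl2, against 12.4% of all windows. Both RefSeq windows of Myl2 (one of them chr5:122092939-122093188) lie before the gene start annotated by GENCODE at 122100951, so they need not be the start used in these hearts. The windows of Myh6, Myl3, Tnni3 and Actc1, a window of Tnnt2 and part of that of Tpm1 lie inside the gene span annotated by GENCODE. The same limit holds for them. These matches describe the letters in these windows, and the search allowed motifs to overlap.

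**Figure D1:**
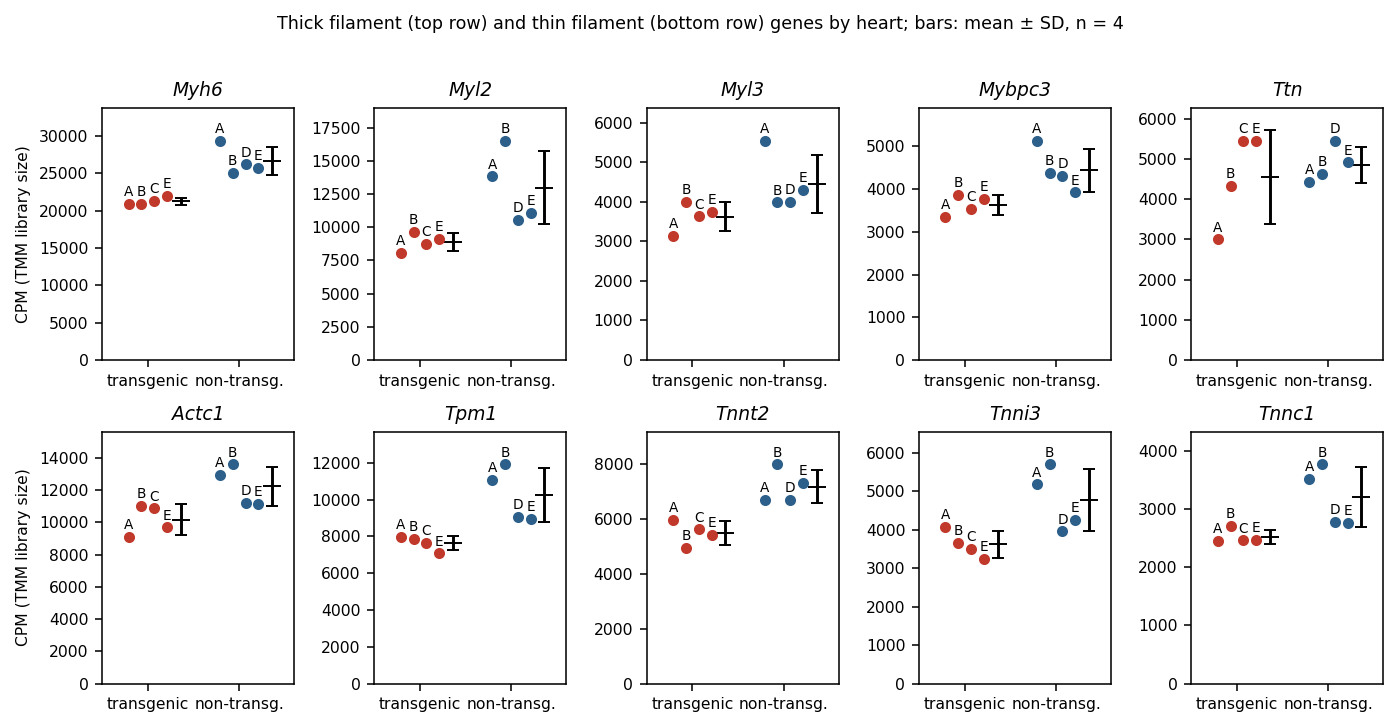
CPM (TMM library size) of the 5 thick filament genes, with titin, in the top row and the 5 thin filament genes in the bottom row; each point is 1 heart with its letter, and the bar is the mean ± SD of 4 hearts. Transgenic points lie below all non-transgenic points in 7 of the 10 panels, and those of Ttn overlap widely.

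The filament genes stood lower in transgenic hearts, and no single one passed the test across all genes. Percent changes ran from -31.5% for Myl2 to -16.8% for Actc1 in 9 members, and that of Ttn was -6.21%. The log2 fold change was below 0 for all 10 members, with a median of -0.34, where the median of all tested genes was 0.01 and 48.8% of them were below 0. Transgenic and non-transgenic values did not overlap for 7 members, all lower in transgenic hearts, beside 2.8% of all tested genes in that direction and 7.38% in either. Of the members 0 rose and 0 fell by edgeR's quasi-likelihood test with adjustment over all genes (adjusted p from 0.143 to 0.909), where 1.01% of tested genes rose, 0.242% fell and 1.25% did either. Unadjusted, 9 members had a p under 0.05, all lower, as had 5.38% of tested genes. DESeq2 called 4 members lower (Myh6, Myl2, Tnnt2 and Tpm1), where 159 genes fell over the whole table. Limma-voom called 0 members, where 32 genes fell. Limma-voom with sample weights called 2 members (Myh6 and Tnnt2), where 252 genes fell.

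These genes are among the most abundant in the files, so other abundant genes are set beside them. Beside the members, 16 other genes, among them 9 mitochondrially encoded genes and Fastkd1 itself, were at least as abundant as the least abundant member. Of these 16, 11 had a log2 fold change below 0 and the median was -0.09. The groups did not overlap for 3 that were lower and for Fastkd1, which was higher, and 1 gene fell and Fastkd1 rose by edgeR. The other 6, nuclear genes apart from the transgene, were all below 0 with a median of -0.32, close to the -0.34 of the members, and the groups did not overlap for 3 of them. The members together took 6.72% (A), 7.45% (B), 7.72% (C) and 7.5% (E) of all counts in transgenic hearts, against 8.95% (A), 8.32% (B), 9.34% (D) and 8.73% (E) in non-transgenic hearts. The group means were 7.35% ± 0.434 and 8.83% ± 0.427 (SD, n = 4 each), and every transgenic heart lay below every non-transgenic heart. With mitochondrially encoded genes and Fastkd1 taken out of the total, the shares were 9.79% ± 0.309 in transgenic and 11.6% ± 0.417 in non-transgenic hearts. In a whole heart, fewer cardiomyocytes and less of these messages per cardiomyocyte cannot be told apart.

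The thick filament motor and its light chains came first. Myh6 (ENSMUSG00000040752; GRCm38 chromosome 14, 54941921 to 54966927, minus strand), the alpha myosin heavy chain, had 20852 (A), 20841 (B), 21284 (C) and 21911 (E) CPM in transgenic hearts, against 29318 (A), 25077 (B), 26174 (D) and 25754 (E) CPM in non-transgenic hearts. The transgenic hearts lay within a narrow band below all non-transgenic hearts, of which A stood highest. The log2 fold change was -0.32 (SE 0.09, 95% interval -0.53 to -0.12; edgeR adjusted p = 0.173), a percent change of -20.2%. Of the 50-base stretches of the longest Myh6 transcript, 22.6% also occur in Myh7, the slow beta heavy chain beside it on the chromosome. Reads that lie wholly within such a stretch cannot be assigned to 1 of the 2 genes with certainty.

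Myl2 (ENSMUSG00000013936; chromosome 5, 122100951 to 122113472, plus strand), the regulatory light chain of the ventricle, had 8068 (A), 9672 (B), 8746 (C) and 9108 (E) CPM in transgenic hearts, against 13822 (A), 16505 (B), 10531 (D) and 11092 (E) CPM in non-transgenic hearts. It had the lowest fold change of the 10, at -0.55 on the log2 scale (SE 0.15, interval -0.87 to -0.22; edgeR adjusted p = 0.158). The groups did not overlap, but non-transgenic hearts D and E stood near the transgenic hearts and hearts A and B well above. Myl3 (ENSMUSG00000059741; chromosome 9, 110741861 to 110769798, plus strand), the essential light chain of the ventricle, had 3132 to 3997 CPM in transgenic hearts and 3987 to 5541 CPM in non-transgenic hearts. Only non-transgenic heart A, at 5541 CPM, stood clear of the others, and transgenic heart B at 3997 CPM was above non-transgenic heart B at 3987 CPM. For Myl3 the log2 fold change was -0.30, with an SE of 0.13 (edgeR adjusted p = 0.447), and -0.18 without non-transgenic heart A.

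Mybpc3 (ENSMUSG00000002100; chromosome 2, 91118144 to 91136516, plus strand), the cardiac myosin-binding protein C that lies along the thick filament and restrains the motors, had 3347 (A), 3860.3 (B), 3534 (C) and 3769 (E) CPM in transgenic hearts, against 5126 (A), 4385 (B), 4303 (D) and 3922 (E) CPM in non-transgenic hearts. The groups came close, with transgenic heart B just below non-transgenic heart E, and did not overlap. Its log2 fold change came to -0.29, with an SE of 0.11 (edgeR adjusted p = 0.347).

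The titin values overlapped most widely. Ttn (ENSMUSG00000051747; chromosome 2, 76703980 to 76982547, minus strand) had 3001 (A), 4321 (B), 5448 (C) and 5440.0 (E) CPM in transgenic hearts, against 4422 (A), 4630.3 (B), 5449 (D) and 4914 (E) CPM in non-transgenic hearts. The single low value was transgenic heart A. Its log2 fold change came to -0.09, with an SE of 0.18 (edgeR adjusted p = 0.909) and an interval of -0.49 to 0.30 that also holds the median of the 10 members. Without transgenic heart A, the heart with the high atrial marker sum, it was 0.06 (edgeR adjusted p = 0.884), and without that heart and non-transgenic heart D 0.12 (edgeR adjusted p = 0.627). The part of atrial tissue in the low value of heart A was not tested.

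**Figure D2:**
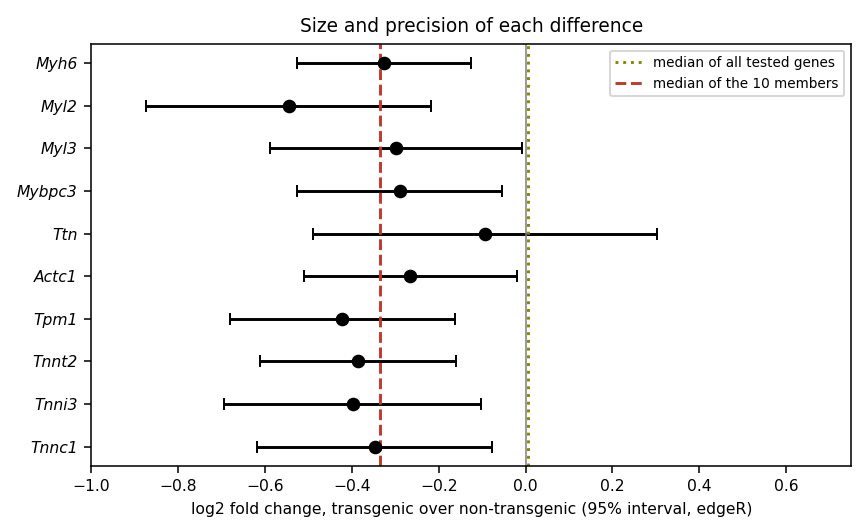
Log2 fold change of each member, transgenic over non-transgenic hearts, with its 95% interval from edgeR; the dotted line is the median of all tested genes (0.01) and the dashed line that of the 10 members (-0.34). The intervals of 9 members lie below 0, and that of Ttn spans it.

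The 5 thin filament genes also stood lower in transgenic hearts, none past the threshold in edgeR. Actc1 (ENSMUSG00000068614; chromosome 2, 114047282 to 114053548, minus strand), the cardiac actin, had 9109 (A), 11052 (B), 10874 (C) and 9694 (E) CPM in transgenic hearts, against 12956 (A), 13606 (B), 11239.6 (D) and 11147 (E) CPM in non-transgenic hearts. The gap between the groups was narrow, from 11052 CPM in transgenic heart B to 11147 CPM in non-transgenic heart E. Its log2 fold change came to -0.27, with an SE of 0.11 (edgeR adjusted p = 0.422). Tpm1 (ENSMUSG00000032366; chromosome 9, 67022590 to 67049406, minus strand), the main tropomyosin of heart muscle, had 7979.9 (A), 7873 (B), 7657 (C) and 7079.9 (E) CPM in transgenic hearts, against 11065 (A), 11915 (B), 9042 (D) and 8956 (E) CPM in non-transgenic hearts. Every transgenic heart was below every non-transgenic heart, and its log2 fold change was -0.42, with an SE of 0.12 (edgeR adjusted p = 0.172).

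The 3 troponin subunit genes are Tnnt2, which anchors the complex to tropomyosin, Tnni3, which holds actin and myosin apart, and Tnnc1, which binds calcium. Tnnt2 (ENSMUSG00000026414; chromosome 1, 135836354 to 135852260, plus strand) had 5980.3 (A), 4967 (B), 5633 (C) and 5426 (E) CPM in transgenic hearts, against 6715 (A), 8002 (B), 6715 (D) and 7319 (E) CPM in non-transgenic hearts. The groups did not overlap, and Tnnt2 had the lowest adjusted p of the 10 (log2 fold change -0.39, SE 0.10; edgeR adjusted p = 0.143), for a percent change of -23.5% with an interval from -34.5% to -10.5%. Tnni3 (ENSMUSG00000035458; chromosome 7, 4518305 to 4524229, minus strand) ran from 3253 to 4074 CPM in transgenic hearts and from 3961 to 5701 CPM in non-transgenic hearts. Here transgenic heart A, at 4074 CPM, was above non-transgenic heart D, at 3961 CPM, so the groups overlapped (log2 fold change -0.40, SE 0.13; edgeR adjusted p = 0.296). Tnnc1 (ENSMUSG00000091898; chromosome 14, 31208312 to 31211729, plus strand) had 2446 to 2701 CPM in transgenic hearts and 2759 to 3763 CPM in non-transgenic hearts, without overlap (log2 fold change -0.35, SE 0.12; edgeR adjusted p = 0.322).

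Counting error was small beside the spread between hearts. The lowest count of any member in any heart was 107764, for which counting alone gives an error of 0.305%, whereas the median coefficient of variation was 7.63% in transgenic and 12.9% in non-transgenic hearts. In 9 of the 10 members the non-transgenic hearts varied more. Non-transgenic heart B was highest for 6 members and non-transgenic heart A for 3, while transgenic heart A was lowest for 6. The scaling bears on this order: TMM factors were lowest in non-transgenic heart B (0.853) and highest in non-transgenic heart D (1.11), where mitochondrially encoded genes took 30.1% and 18.6% of counts. With library totals only, the groups did not overlap for 5 members (Myl2, Tnnc1, Tnni3, Tnnt2 and Tpm1), beside 2.57% of all genes, and the groups overlapped for Myh6, Mybpc3 and Actc1.

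**Figure D3:**
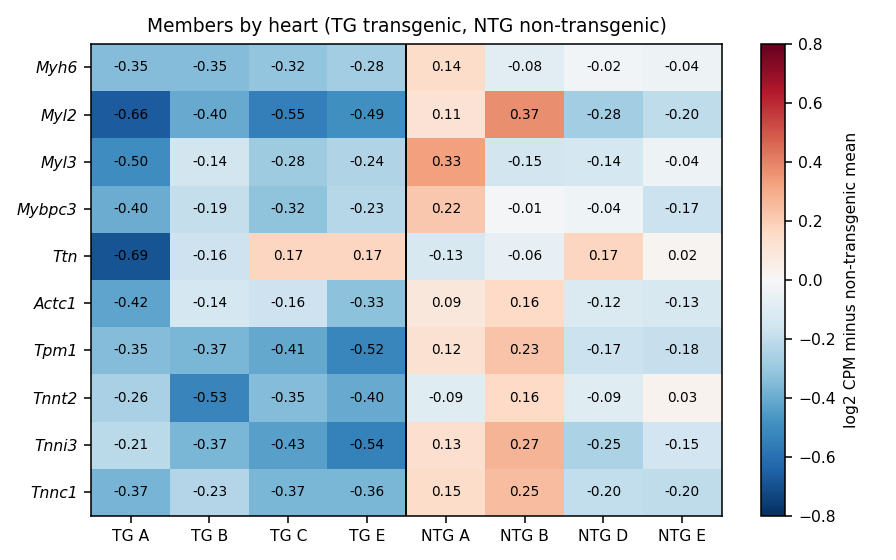
Log2 CPM of each member in each heart minus the mean of log2 CPM over the 4 non-transgenic hearts (TG, transgenic; NTG, non-transgenic; blue lower, red higher). Transgenic hearts are below 0 for every member except Ttn in hearts C and E (0.17 each), and non-transgenic hearts D and E lie below A and B for most thin filament genes.

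Apart from Ttn and Myl2, the proportions of the members to each other differed little between the groups. When each member was set against the geometric mean of the other 9, the transgenic and non-transgenic ranges overlapped for all 10. The largest shifts were those of Ttn, 0.23 on the log2 scale, and Myl2, -0.21, and the other 8 lay between -0.09 and 0.08. For Myl2 the overlap rests on non-transgenic heart D (log2 ratio 0.715). Non-transgenic hearts A, B and E stood at 0.791 to 1.18, above the transgenic range of 0.626 to 0.773. For Ttn, transgenic heart A was lowest (-0.955), with the other transgenic hearts at -0.518 to -0.112. Non-transgenic heart D was highest of its group (-0.341), with the others at -0.921 to -0.514. Over the 8 hearts, log2 CPM of the 36 pairs without Ttn had Pearson r of 0.35 to 0.98 with a median of 0.79, and the 9 pairs with Ttn had r of -0.25 to 0.30 with a median of 0.17. Without transgenic heart A and non-transgenic heart D the medians over 6 hearts were 0.83 without Ttn and -0.60 with Ttn. These r describe 8 libraries that share the same scaling and 2 genotypes. Over all 45 pairs the median was 0.74, and 0.23 for deviations from the group means.

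Per kilobase of exon, the order of levels was nearly the same in every heart. With exons pooled over all annotated transcripts, Actc1 came first at 6293 ± 578 CPM per kb in transgenic and 7563 ± 763 CPM per kb in non-transgenic hearts (n = 4 each, SD). Myl2 followed at 4563 ± 345 in transgenic and 6660.4 ± 1411 CPM per kb in non-transgenic hearts, and Myl2 and Actc1 changed places in at least 1 heart. Myh6 held rank 3 in all 8 hearts, then Tnnc1, with Myl3 and Tnni3 next and not separated by their spread, then Tpm1. Mybpc3 and Tnnt2 came close together, at 871 ± 55.7 and 710 ± 54.6 CPM per kb in transgenic hearts and 1065 ± 121 and 927 ± 79.1 CPM per kb in non-transgenic hearts. Ttn was last everywhere, at 39.0 ± 9.95 CPM per kb in transgenic and 41.5 ± 3.81 CPM per kb in non-transgenic hearts. The order depends on the length taken for genes with many transcripts: over the longest annotated transcript, Myl2 ranked 1 and Actc1 ranked 2, followed by Tnni3, Tnnc1 and Myh6 at ranks 3, 4 and 5 in both groups.

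Fetal, atrial and skeletal counterparts remained a small part beside the members, except the atrial light chain in 1 heart. Myh7 made up 2.89% ± 0.256 of Myh6 and Myh7 together (per kilobase) in transgenic hearts and 3.0% ± 0.356 in non-transgenic hearts (SD, n = 4 each; two-sided exact permutation p = 0.60). Of the 50-base stretches of the longest Myh7 transcript, 22.2% also occur in Myh6. The part of misassigned Myh6 reads in the Myh7 share was not tested. Acta1, the skeletal actin, made up 5.74% ± 2.33 of the 2 actins in transgenic and 3.52% ± 0.940 in non-transgenic hearts, with transgenic hearts at 2.98% (A), 5.73% (B), 5.57% (C) and 8.69% (E) (exact permutation p = 0.0857). The difference was 2.23 percentage points, and leaving out single hearts it ran from 1.24 without transgenic heart E (exact permutation p = 0.20) to 3.15 without transgenic heart A (exact permutation p = 0.0286), the low one. Without transgenic heart A and non-transgenic heart D it was 2.89 (exact permutation p = 0.10, the smallest that 3 against 3 hearts allow). Tnnt1, the slow skeletal troponin T, was 0.475% ± 0.0519 of the 2 troponin T genes in transgenic and 0.576% ± 0.105 in non-transgenic hearts (exact permutation p = 0.171). The atrial light chain Myl7 was 19.5% of Myl7 and Myl2 in transgenic heart A and 0.0419% to 2.104% in the other 3 transgenic hearts, against 3.71% in non-transgenic heart D and 0.0368% to 0.292% in the other 3 non-transgenic hearts (exact permutation p = 0.60). Adjusted over the 4 shares, p ran from 0.343 to 0.60. The smallest unadjusted p that 4 against 4 hearts, or 3 against 4, allow is 0.0286. Tnni1 was not among the tested genes, and its share of Tnni1 and Tnni3 was not computed.

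Most other genes of the sarcomere did not pass the test. Of 20 further isoform genes 15 were tested, of which 0 rose, Tnnt1 fell and 14 did not pass, with a median log2 fold change of 0.37 and 6 of 15 below 0. That list holds the atrial genes Myl4 and Myl7, and its summed level was highest, at 3817 CPM, in transgenic heart A. Without that heart the median of the list was -0.11. Tnnt1 stood at 7.43 ± 0.594 CPM in transgenic and 11.8 ± 1.81 CPM in non-transgenic hearts (n = 4 each, SD; log2 fold change -0.66, edgeR adjusted p = 0.0412). Acta2, the smooth muscle actin and also a marker of that cell type, was at 210 to 375 CPM in transgenic and 108 to 173 CPM in non-transgenic hearts (log2 fold change 1.03, SE 0.21; edgeR adjusted p = 0.0505). Of 23 genes of the Z-disc, M-band and filament ends, Tcap and Tmod4 fell, 0 rose and 21 did not pass, with 18 below 0 and a median of -0.17. Tcap, the titin cap protein, had a log2 fold change of -0.50 (SE 0.09; edgeR adjusted p = 0.0319), and Tmod4, a tropomodulin, of -1.02 (SE 0.17; edgeR adjusted p = 0.0168). Most of these calls rest on all 8 hearts: over 9 fits that left out 1 heart, or transgenic heart A and non-transgenic heart D, Tnnt1 passed in 1, Tcap in 3 and Tmod4 in 6, all still below 0.

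Genes that build and turn over filaments, and the transcription factors of heart muscle, showed no common direction. Of 17 tested genes for assembly, phosphorylation and turnover, the chaperone gene Hsp90aa1 rose (log2 fold change 0.68, SE 0.12; edgeR adjusted p = 0.0223), 0 fell and 16 did not pass, with a median of -0.00. The ubiquitin ligase gene Trim63 had a log2 fold change of -0.21 (SE 0.09; edgeR adjusted p = 0.418). Of 18 transcription factor genes, Hand2 fell (log2 fold change -0.46, SE 0.09; edgeR adjusted p = 0.0353), 0 rose and 17 did not pass, with a median of 0.07. Mef2c, known to act on many contractile genes, had a log2 fold change of -0.17 (SE 0.09; edgeR adjusted p = 0.583). Over the same 9 fits, Hsp90aa1 passed in 3 and stayed above 0, and Hand2 passed in 3 and stayed below 0.

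Other genes typical of cardiomyocytes were lower beside the filament genes, and the summed levels of markers of other cell types overlapped between the groups. The 16 other cardiomyocyte markers summed to 33146 to 34433 CPM in transgenic hearts and 38866 to 47057 CPM in non-transgenic hearts, without overlap. Among them Hrc, a calcium-binding protein of the sarcoplasmic reticulum, fell (log2 fold change -0.48, SE 0.09; edgeR adjusted p = 0.0387), 0 rose and 15 did not pass, 15 of 16 were below 0, and the median was -0.21. Hrc passed in 3 of the 9 fits with hearts left out. The marker above 0 was Slc8a1, the sodium-calcium exchanger, named after its values were seen, with 333 ± 18.9 CPM in transgenic and 276 ± 19.8 CPM in non-transgenic hearts (n = 4 each, SD), groups without overlap and a log2 fold change of 0.27 (edgeR adjusted p = 0.296). The 9 endothelial markers summed to 993 to 1042 CPM in transgenic and 976 to 1143 CPM in non-transgenic hearts, and the 9 fibroblast markers to 1367 to 1982 CPM in transgenic and 1407 to 1940.2 CPM in non-transgenic hearts. The 9 macrophage and leukocyte markers, 8 tested smooth muscle and pericyte markers and 6 tested adipocyte markers likewise overlapped in summed level. Below 0 were 7 of 9 endothelial markers (median -0.03), 5 of 9 fibroblast markers (median -0.01), 9 of 9 macrophage and leukocyte markers (median -0.14), 3 of 8 smooth muscle and pericyte markers (median 0.13) and 6 of 6 adipocyte markers (median -0.61). In these 5 lists 0 genes passed in edgeR, and unadjusted p was under 0.05 for Acta2 (higher) and 1 macrophage and leukocyte marker (lower). Of 12 tested atrial markers 0 passed, 2 were below 0 and the median was 0.74, but -0.22 without transgenic heart A and 0.10 without that heart and non-transgenic heart D. Of 4 tested erythroid genes 0 passed, all 4 had an unadjusted p under 0.05 and were lower with a median of -0.67, and their sum ran from 299 to 416 CPM in transgenic and from 356 to 803 CPM in non-transgenic hearts. Of 12 skeletal muscle markers only Ckm, which heart muscle also expresses, was among the tested genes. The part of cell composition in the filament gene difference was not tested.

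**Figure D4:**
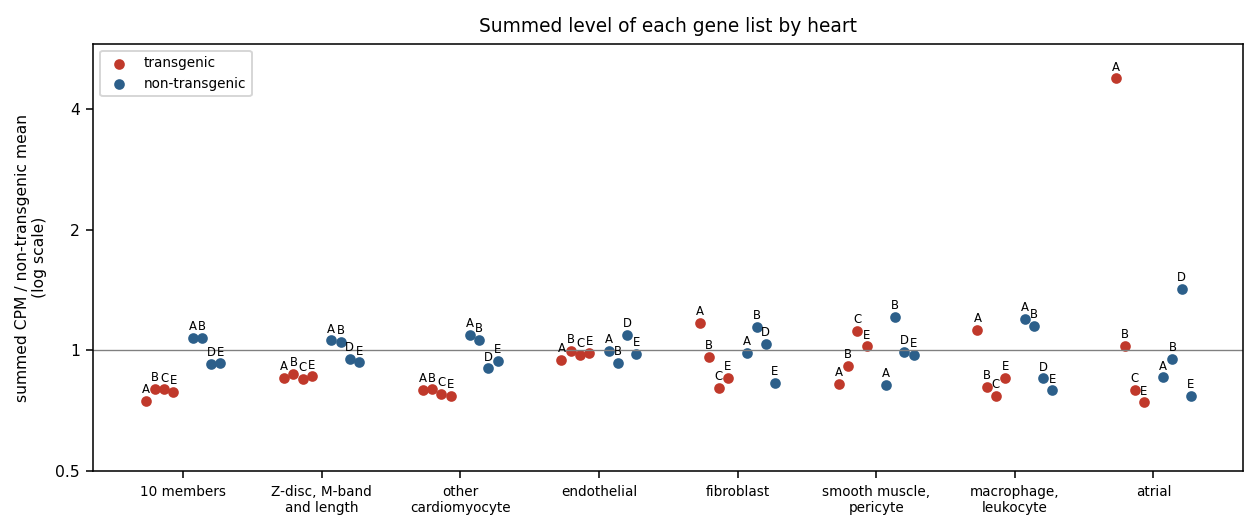
Summed CPM of each gene list in each heart, divided by the non-transgenic mean, on a log scale; points are hearts with their letters, transgenic left of non-transgenic. Transgenic hearts lie below all non-transgenic hearts for the 10 members (0.747 to 0.802 of the non-transgenic mean), the Z-disc list and the other cardiomyocyte markers, and overlap for the endothelial, fibroblast, smooth muscle, leukocyte and atrial lists.

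Set against the other cardiomyocyte markers, the filament genes stood differently by the measure used. Mean log2 CPM of the members exceeded that of the markers by 2.24 to 2.31 in transgenic hearts and by 2.35 to 2.45 in non-transgenic hearts, without overlap. By summed CPM, where the most abundant genes weigh most, the members stood at 1.98 to 2.17 times the markers in transgenic hearts and at 2.08 to 2.17 times in non-transgenic hearts, which overlapped. Among 8741 other genes (average log2 CPM 3 or more), the 8 whose log2 CPM over the 8 hearts was most like the mean z score of the members were Popdc2, Fhl2, Mcl1, Magix, Vamp5, Limch1, Gm34302 and Plin3, with Pearson r of 0.951 to 0.978. Of these 8, Gm34302 fell (log2 fold change -1.23, SE 0.19; edgeR adjusted p = 0.00866) and 7 did not pass, with log2 fold changes from -0.58 for Plin3 to -0.10 for Mcl1. That mean z score was lower in every transgenic heart than in every non-transgenic heart. Genes picked for likeness to it therefore have a high r and a lower transgenic level by selection.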

How the data were processed

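RNA from 8 hearts was sequenced after Trizol extraction and TruSeq library preparation, per the labels' protocols. The files deposited by the authors hold raw counts as whole numbers for Ensembl gene identifiers, each file being 1 library. The authors' tools, per the submitters' processing notes, included cutadapt 1.15 and TopHat2, and the builds named there are GRCm38 and mm10. The sources used here do not give the counter, annotation release or strand setting. Each gene listed had a second-highest CPM of at least 1.003. Symbols and coordinates came from GENCODE M21 (GRCm38), with 7 identifiers unmatched, and promoters from RefSeq.

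Counts were fitted in R 4.3.3 with edgeR 4.0.16 (filterByExpr, TMM, quasi-likelihood F test of transgenic against non-transgenic hearts, Benjamini-Hochberg over 13226 genes, threshold 0.05). The SE was worked back as the absolute log2 fold change over the square root of F, and 95% intervals use the test's degrees of freedom. Log2 CPM of a library used 2 as prior count. Isoform shares were tested by exact permutation (70 arrangements, two-sided). Counting error covers counting only. The fit was tested on simulated data.

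Alternatives were other scalings, DESeq2 1.42.0, limma 3.58.1, 2 other low-count filters, a threshold of 0.1, a block on title letters and leaving out libraries. Leaving out hearts for list medians, correlations, summed levels and called genes outside the members, and leaving out both doubted hearts for isoform shares, were added after seeing the data. No label says that a shared letter pairs mice. The p-values set the difference between the groups against the spread between these libraries. The members and lists were chosen with earlier results of these data known. Named genes were the members and their counterparts, the genes of each fixed list past the threshold or with the 2 smallest p (for cell type markers, those past it alone, Acta2 and Ckm being named for their lists), and the 8 genes most like the members. Ratios, levels per length and correlations are descriptions. Exons of Myh6, Myl2, Myl3 and Ttn overlap genes on the opposite strand by 0.388% to 4.65% of their length, and those of Tnni3 overlap Dnaaf3 on the same strand by 4.17%, where reads cannot be told apart without strand or by position.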

Additional observations from a re-analysis of the deposited data

Results flagged for a closer look

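Within single groups of 4 hearts, 3 of 30 groups of values held a heart far from the other 3, where chance gives about 1 in 20. Tnnc1 stood at 2701 CPM in transgenic heart B, above the other transgenic hearts at 2446 to 2465 CPM, and was still below the lowest non-transgenic heart. The Myl7 share of Myl7 and Myl2 (per kilobase) was 19.5% in transgenic heart A and 3.71% in non-transgenic heart D, each far above the other 3 hearts of its group. Transgenic heart A and non-transgenic heart D are the hearts with the highest summed atrial markers.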

How the results depend on the processing

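The log2 fold change of all members except Ttn stayed below 0 under all 20 alternatives. Of 200 such values over the 10 members, 191 kept their direction and their side of the threshold, 7 passed it newly and 2 turned, both of Ttn: it was 0.063 without transgenic heart A (leaving out single hearts, -0.203 to 0.063) and 0.123 without that heart and non-transgenic heart D together. Members past the threshold numbered 4 with DESeq2, 2 with limma-voom with sample weights and 1 (Tpm1) with library totals only, against 0 in the edgeR test. The cause was not tested. With sample weights some folds shrank by over 1.5 times: Myl2 to -0.351, Mybpc3 to -0.182, Tnnc1 to -0.197, Actc1 to -0.137 and Ttn to -0.0226, and Myl3 came to -0.177 without non-transgenic heart A. The genes past the threshold over the whole table numbered 408 with DESeq2, 632 with limma-voom with sample weights and 276 without those 2 hearts, against 165. Those that fell numbered 159, 252 and 106 there, against 32, and leaving out single hearts from 9 (without transgenic heart B) and 10 (without non-transgenic heart A) to 72 (without non-transgenic heart D). Without 1 heart at a time 0 members passed, and the median of the 10 members lay between -0.39 and -0.29. Library totals moved that median to -0.25 and the median of all genes to 0.08, with 168 genes past the threshold, of which 30 fell. Leaving out single hearts, the difference in the Myh7 share ran from -0.227 to 0.0700 percentage points, turning without non-transgenic heart D (0.104 without both hearts), and that in the Myl7 share from -0.243 to 6.23, turning without transgenic heart A. A replicate block on title letters gave 124 genes and 0 members past the threshold. Hearts that share a letter are not shown to be paired. Their deviations from the group means correlated at 0.30 (A), -0.08 (B) and 0.36 (E). Hearts with different letters were not correlated in this way, so these values cannot decide whether letters pair hearts. With 4 hearts a group, the intervals of the members span up to 0.79 on the log2 scale, and depth was not the limit.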
